A study of Mus musculus with 12 samples.

Results

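Polyribosome pulldowns of hippocampal CA1 pyramidal neurons hold RNAs that encode no protein, and 8 of them were followed here: the long noncoding RNAs Malat1, Neat1, Meg3, Rian, Mirg, Miat and Snhg11, and Rn45s, the row for the 45S precursor of ribosomal RNA. They were chosen by symbol among the 24079 genes of the count table. All 8 had a row, and all 8 were among the 17823 genes with at least 15 reads in total. The mice carried an HA tag on the ribosomal protein Rpl22 (RiboTag), switched on by Wfs1-CreERT2, an inducible Cre driven from the gene of the CA1-enriched protein Wfs1. Tamoxifen was given at 100 mg/kg on 3 days, and whole hippocampi were taken 1 week later from male C57BL/6J mice aged 2 to 6 months. The groups were 6 wild-type and 6 Fmr1-/y libraries, each from a pool of 4 to 6 mice. Both groups carried the RiboTag and Cre alleles and received tamoxifen, and differed in Fmr1, which encodes the translational regulator FMRP.

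Long noncoding RNAs are transcribed and often spliced and polyadenylated like mRNAs, but have no long open reading frame. Malat1 and Neat1 lie side by side on chromosome 19 and stay in the nucleus, Malat1 at nuclear speckles and Neat1 as the scaffold of paraspeckles. Meg3, Rian and Mirg are expressed from the maternal chromosome in the imprinted Dlk1-Dio3 region of chromosome 12 and carry small nucleolar RNAs and microRNAs along their length. Miat (also called Gomafu) is a nuclear RNA of neurons, Snhg11 is a host gene of small nucleolar RNAs, and Rn45s is the precursor from which the ribosome's own RNAs are cut. In a tagged-ribosome pulldown such RNAs can be read as a measure of background or of ribosome association. No library of unprecipitated hippocampal RNA was analysed here, so that enrichment by the pulldown was not measured, and these readings cannot be told apart.

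In GRCm38, the build of the alignment (mm10), RefSeq places Malat1 at chr19:5795690-5802672 and Neat1 at chr19:5824708-5845480, both on the minus strand with 22035 bases between them. Meg3 lies at chr12:109540996-109571729, Rian at chr12:109603945-109661716 and Mirg at chr12:109734981-109749458, all on the plus strand and together spanning 208463 bases. Miat lies at chr5:112213228-112228948 on the minus strand and Snhg11 at chr2:158375713-158386474 on the plus strand. RefSeq lists these 7 as long noncoding RNAs, and no coordinates were used for Rn45s.

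RefSeq promoter windows, from 250 bases before to 50 bases after a start (GRCm38.p6), were found for 6 of the 8 RNAs. The windows of Meg3 and Malat1 are shown because these RNAs moved together across libraries, as described further on. Capitals mark TGACGTCA (the cAMP response element, its own reverse complement), TATAAA or TTTATA, which overlap in Meg3, and CCAAT or ATTGG. The Meg3 window is chr12:109540746-109541045 on the plus strand and the Malat1 window is chr19:5802623-5802922 on the minus strand, both written 5′ to 3′ along the transcript.
Meg3: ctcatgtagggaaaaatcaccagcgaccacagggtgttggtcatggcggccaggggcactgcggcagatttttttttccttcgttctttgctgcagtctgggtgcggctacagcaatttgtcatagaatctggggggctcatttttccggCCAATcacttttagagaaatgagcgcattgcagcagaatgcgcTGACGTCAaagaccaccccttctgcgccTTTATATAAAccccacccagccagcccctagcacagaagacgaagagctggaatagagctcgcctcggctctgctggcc
Malat1: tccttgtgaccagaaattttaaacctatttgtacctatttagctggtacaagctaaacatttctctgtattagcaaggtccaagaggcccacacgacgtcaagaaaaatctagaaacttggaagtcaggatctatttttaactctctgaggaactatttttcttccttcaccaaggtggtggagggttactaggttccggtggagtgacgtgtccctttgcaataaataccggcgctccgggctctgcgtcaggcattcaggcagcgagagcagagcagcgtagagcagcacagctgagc
TGACGTCA occurred in 1.79% of the 32851 RefSeq mouse windows of this length, TATAAA in 13.6% and CCAAT in 37.4%, each on either strand. Meg3 held all 3 in its first window, whereas the Malat1, Rian, Miat and Snhg11 windows held none of them. A match is a description of the sequence and not of a factor bound there.

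Depth was 39400980 to 55745464 counted reads in the wild-type libraries and 43106629 to 65565479 in the Fmr1-/y libraries, the deepest being Fmr1-/y library 5. The read count of Fmr1 was 1971 to 2608 across wild-type libraries and at most 1 across Fmr1-/y libraries, at least 823-fold lower against a floor of 3 reads per library. The 9 CA1 pyramidal markers summed to 8722 to 10819 CPM (normalized counts per 1000000 reads) in wild-type and 8390 to 10011 CPM in Fmr1-/y libraries, and none was at 0 in any library. Markers of cells outside the gate were also present. The 6 astrocyte markers summed to 1827 to 2132 CPM in wild-type and 1951 to 2858 CPM in Fmr1-/y libraries, and the 5 choroid plexus markers to 6381 to 11864 CPM and 8305 to 17506 CPM. Single genes led these sums. Over the 12 libraries Ttr averaged 9821 CPM, and the other choroid plexus markers 49.7 to 252 CPM. Camk2a averaged 6016 CPM among the CA1 markers and Slc1a2 1352 CPM among the astrocyte markers. By qRT-PCR, the study reported GABAergic and glial markers as depleted in the pulldown against the input.

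How much of the pulldown did these RNAs make up? Rn45s had the highest mean CPM of the 17823 genes over the 12 libraries. It was not the highest in each library. In Fmr1-/y library 1 it stood at 4356 CPM, below the CA1 marker Camk2a, which had at least 5450 CPM in every Fmr1-/y library. Reads of Rn45s made up 1.80% to 3.88% of all counted reads in wild-type libraries, and 0.448% to 3.78% in Fmr1-/y libraries. With at least 236072 reads in every library, the 95% Wilson interval of each share stayed within 0.01 percentage points of it, for counting error alone. The libraries were made from poly-A selected RNA, so that this share is what selection left and not the ribosomal RNA content of the pulldown.

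Levels between genes can be compared only per length, and the long noncoding RNAs were set side by side as RPKM (CPM divided by length in kilobases) over the exons of their annotated transcripts. In wild-type libraries Meg3 stood at 61.4 ± 6.15 RPKM and Snhg11 at 61.2 ± 7.37 RPKM (SD, n = 6). Malat1 followed at 44.0 ± 4.66 RPKM and Miat at 36.9 ± 3.23 RPKM. Rian stood at 8.45 ± 0.519 RPKM, Neat1 at 4.51 ± 0.555 RPKM and Mirg at 2.05 ± 0.445 RPKM. The wild-type ranges of the neighbours Meg3 and Snhg11 overlapped, as did those of Malat1 and Miat. The other neighbours did not overlap. Malat1 reached 48.3 RPKM at most where Meg3 began at 49.6, Miat began at 32.9 where Rian ended at 8.85, Rian began at 7.44 where Neat1 ended at 5.18, and Neat1 began at 3.76 where Mirg ended at 2.42. On the same scale the median of all genes was 4.46 RPKM, so that Mirg lay below it and Neat1 close to it. Over all 12 libraries, Wfs1, the gene whose promoter drives Cre, stood at 307 RPKM. Gfap, an astrocyte filament protein, stood at 62.8 RPKM and Gad1, a GABA-synthesizing enzyme of interneurons, at 18.0 RPKM.

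The order rests on the transcripts assumed. For Meg3, annotated with transcripts of 1896 to 14548 bases, the mean over 12 libraries was 66.5 RPKM over all its exons but 550 RPKM over the shortest transcript. For Neat1, with a short form of 3004 bases and a long form of 20771 bases, it was 5.22 RPKM over all exons and 36.1 RPKM over the short form. Counts per gene do not separate these forms. Rian had no transcript matched to RefSeq, and all its annotated transcripts were used.

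**Figure D1:**
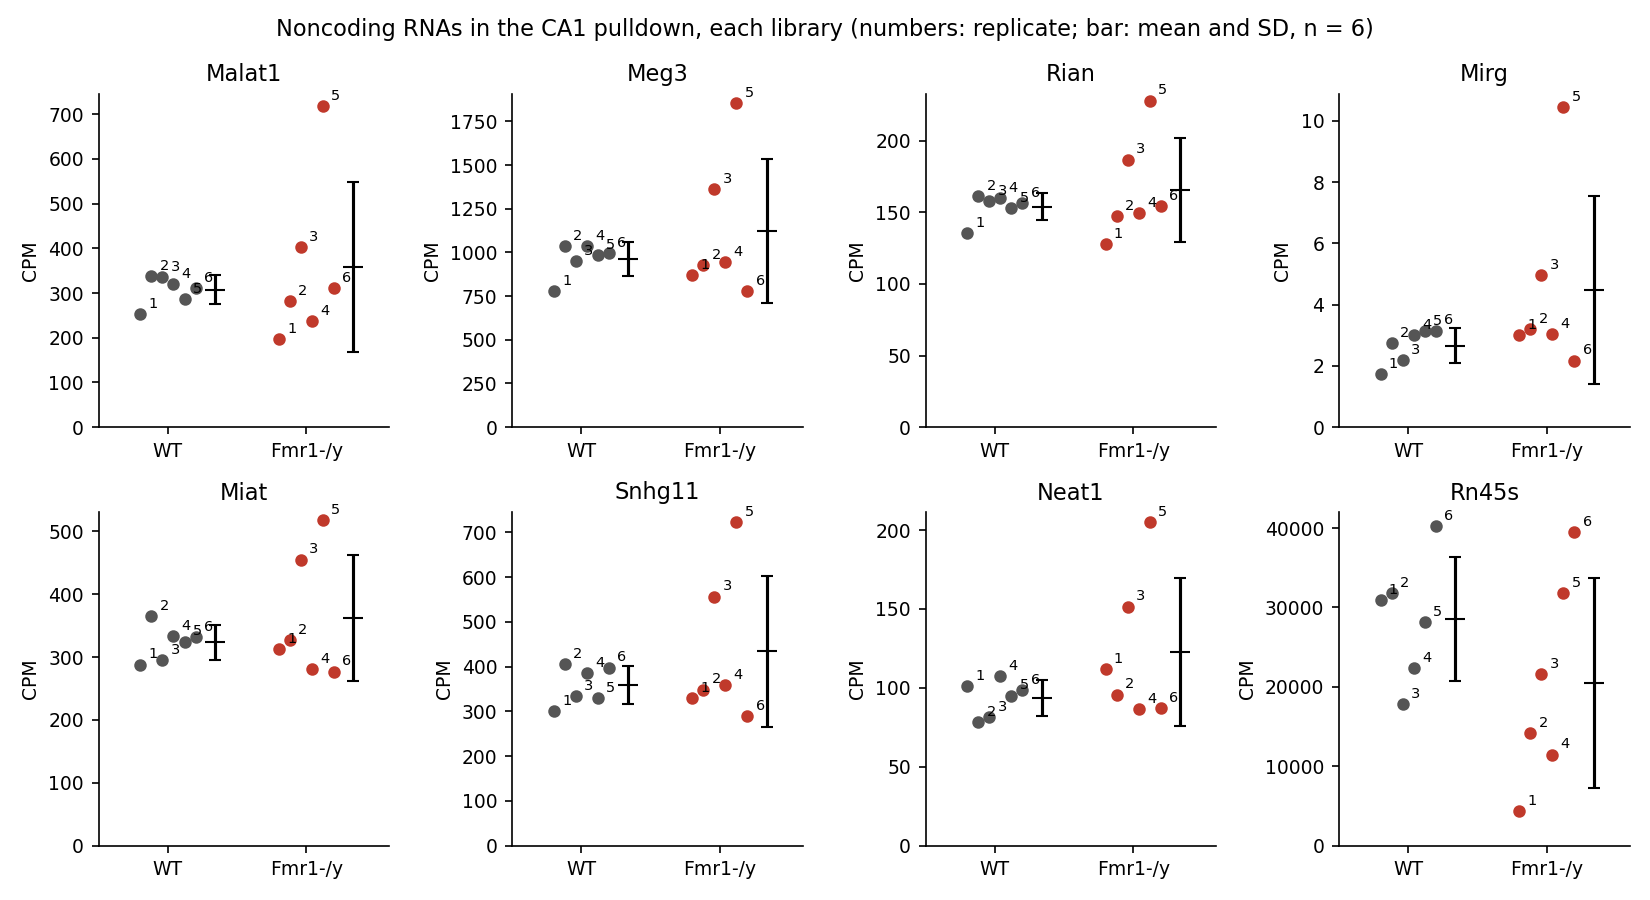
Levels of the 8 noncoding RNAs (CPM, linear axis from 0, a scale of its own in each panel), with 1 point per library, replicate numbers beside the points, and the mean and SD of 6 libraries as bars. Fmr1-/y libraries 5 and 3 are the highest points in the 7 long noncoding RNA panels, while in the Rn45s panel library 1 is the lowest Fmr1-/y point, at 4356 CPM.

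How did the nuclear RNAs Malat1 and Neat1 vary between libraries? In wild-type libraries Malat1 ranged from 252 to 338 CPM with a median of 316 CPM. In Fmr1-/y libraries it ranged from 197 to 719 CPM with a median of 297 CPM. The highest value, in Fmr1-/y library 5, was 2.34 times the wild-type mean, and the next, 403 CPM in library 3, was 1.31 times that mean. The other 4 Fmr1-/y libraries lay at 197 to 311 CPM, and library 1 was the lowest of all 12.

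Neat1 ranged from 78.2 to 108 CPM in wild-type libraries (median 96.7 CPM) and from 86.4 to 205 CPM in Fmr1-/y libraries (median 104 CPM). Library 5 was again highest, at 2.19 times the wild-type mean, and library 3 second, at 151 CPM. Library 1, the lowest for Malat1, was the third highest for Neat1 at 112 CPM. The ratio of Malat1 to Neat1 CPM was therefore 1.75 in that library, against 2.49 to 4.32 in the wild-type libraries, and 3.51 in library 5. For both RNAs the groups overlapped.

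Among the 3 maternally expressed RNAs of the Dlk1-Dio3 region, Meg3 ranged from 778 to 1035 CPM in wild-type libraries (median 991 CPM) and from 777 to 1852 CPM in Fmr1-/y libraries (median 934 CPM). Rian, which lies next to it, ranged from 136 to 161 CPM (median 157 CPM) and from 128 to 228 CPM (median 152 CPM). Both medians were slightly lower in the Fmr1-/y group, and the top of the range was set by libraries 5 and 3.

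Mirg, at the far end of the cluster, had the lowest level of the 7. It ranged from 1.73 to 3.15 CPM in wild-type libraries (median 2.87 CPM) and from 2.174 to 10.4 CPM in Fmr1-/y libraries (median 3.13 CPM). Library 5 stood 3.93 times above the wild-type mean for Mirg, 1.92 times for Meg3 and 1.48 times for Rian, so that the 3 neighbours did not stand out equally there. The ratio of Meg3 to Mirg CPM was 314 to 450 in the wild-type libraries and 177 in library 5.

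Miat and Snhg11 again had libraries 5 and 3 on top. Miat ranged from 288 to 366 CPM in wild-type (median 328 CPM) and from 277 to 518 CPM in Fmr1-/y libraries (median 319 CPM). Snhg11 ranged from 301 to 406 CPM (median 360 CPM) and from 289 to 723 CPM (median 354 CPM). For Snhg11, library 5 was 2.01 times and library 3 was 1.55 times the wild-type mean, and for Miat 1.602 and 1.41 times.

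Rn45s behaved differently. In wild-type libraries it ranged from 17848 to 40232 CPM with a median of 29547 CPM. In Fmr1-/y libraries it stood at 4356, 14135, 21562, 11455, 31808 and 39447 CPM in libraries 1 to 6. Across all 12 libraries the highest value was 9.24 times the lowest, and library 6 and wild-type library 6 were the highest in their groups. Library 5, which was highest for the 7 long noncoding RNAs, lay inside the wild-type range for Rn45s at 1.11 times the wild-type mean, and library 3 lay at 0.755 times.

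**Figure D2:**
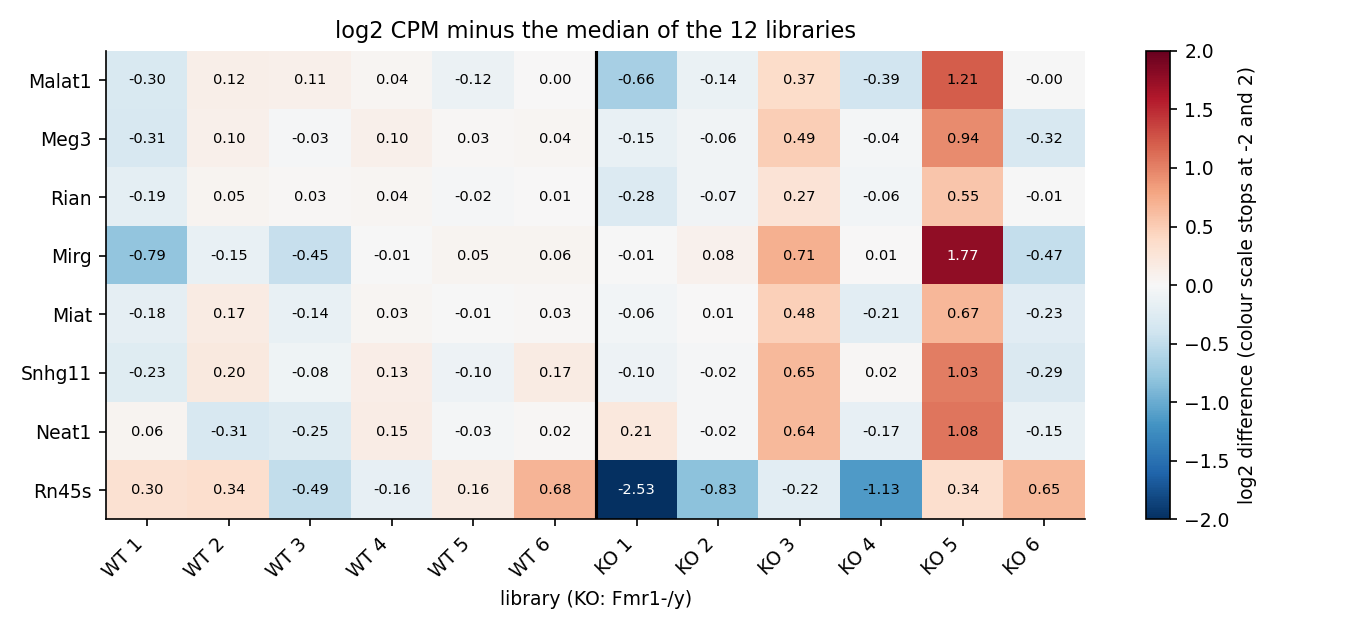
Each cell gives a library's log2 CPM minus the median of the 12 libraries for that RNA (red above, blue below; KO stands for Fmr1-/y). Fmr1-/y library 5 lies 0.55 to 1.77 above the median for the 7 long noncoding RNAs and library 3 lies 0.27 to 0.71 above, while Rn45s in library 1 lies 2.53 below it.

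The 7 long noncoding RNAs were thus all highest in Fmr1-/y library 5 and second in library 3. Of all genes tested, 13.1% were highest in library 5, and 1.93% were highest there and second in library 3. Among 39 other noncoding RNAs with enough reads, 14 were highest in library 5, and 6 of them (Ftx, Firre, A330023F24Rik, Snhg1, Snhg3 and Snhg4, named after their values were seen) were second in library 3. Library 5 also had the most reads, the highest sum of 6 endothelial markers (74.2 CPM, against 39.9 to 55.7 CPM in wild-type) and the lowest sum of 6 oligodendrocyte markers (978 CPM, against 1085 to 1629 CPM). Its sum of 6 dentate granule markers was the lowest of the 12 libraries (108 CPM, against 132 to 165 CPM in wild-type). Its sums of CA3 and CA2 markers (293.9 CPM) and of astrocyte markers (2288 CPM) lay above the wild-type maxima of 290.5 and 2132 CPM. Neither was particular to library 5, as the Fmr1-/y maxima were 302.1 and 2858 CPM and the Fmr1-/y median of the astrocyte sum was 2345 CPM. Its CA1 marker sum, 9362 CPM, lay inside the wild-type range. Library 3 did not share these traits and had the fewest reads of the Fmr1-/y group. Its sums of endothelial (51.7 CPM), oligodendrocyte (1491 CPM) and dentate granule markers (147 CPM) lay inside the wild-type ranges. So did its sums of CA3 and CA2 (250.8 CPM), astrocyte (1951 CPM) and CA1 markers (9009 CPM). Correlations across libraries with depth and with scores of CA1 and of glial and endothelial markers are given further on. The part of these measures in the high levels of libraries 5 and 3 was not tested.

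Did the loss of FMRP change their level? With edgeR's quasi-likelihood test and Benjamini-Hochberg adjustment over all genes tested, 0 of the 8 RNAs differed between genotypes, where 0.0224% of all genes did. With DESeq2 the count was also 0, against 0.471% of all genes. For all 8 RNAs the ranges of the groups overlapped, while 0.623% of all genes did not overlap. At an unadjusted p under 0.05, Mirg and Neat1 were higher in Fmr1-/y, 2 of 8 against 4.29% of all genes in that direction, and none was lower, against 3.67%. In either direction 7.96% of all genes had such a p. Taken in either direction, the count of 2 was not stable. It was 0 with limma voom, without Fmr1-/y library 5 or without wild-type library 3, and 1 with DESeq2. Without Fmr1-/y library 6 it was 4, with Mirg, Neat1 and Snhg11 higher and Rn45s lower in Fmr1-/y.

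Mirg differed by 0.76 ± 0.31 on the log2 scale (Fmr1-/y minus wild-type, standard error) with an adjusted p of 0.539 in edgeR. Without library 5 the difference was 0.31, and without libraries 3 and 5 it was 0.11. Neat1 differed by 0.39 ± 0.18 with an adjusted p of 0.598, by 0.19 without library 5 and by 0.03 without both.

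Malat1 differed by 0.22 ± 0.23 (adjusted p = 0.883 in edgeR), which became 0.35 without library 1, -0.10 without library 5 and -0.26 without libraries 3 and 5. That last value had an unadjusted p of 0.0392 and an adjusted p of 0.593. Meg3 differed by 0.22 ± 0.17 (adjusted p = 0.818), Snhg11 by 0.27 ± 0.18 (adjusted p = 0.773), Miat by 0.16 ± 0.13 (adjusted p = 0.834) and Rian by 0.10 ± 0.11 (adjusted p = 0.886). Without libraries 3 and 5 these differences were -0.13, -0.11, -0.11 and -0.09. Each of these 5 RNAs therefore had a positive difference with all libraries and a negative one without the pair, and none passed the threshold in either fit. The pair was chosen after seeing that it held the highest values of these RNAs. Leaving it out lowers each difference in any case, so that the change of sign is no result about genotype.

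Rn45s differed by -0.48 ± 0.36 (adjusted p = 0.817 in edgeR), the opposite direction. Here Fmr1-/y libraries 1 and 6 weighed most, with a difference of -0.27 without library 1 and of -0.78 without library 6, and it was -0.65 without library 5. In library 1 the choroid plexus markers reached 17506 CPM and the astrocyte markers 2858 CPM, the highest of the 12 libraries. The correlation of Rn45s with a score that holds the astrocyte markers is given further on. The part of either marker set in the Rn45s level of library 1 was not tested. In these bulk pulldowns, fewer cells of a type and less RNA per cell cannot be told apart.

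**Figure D3:**
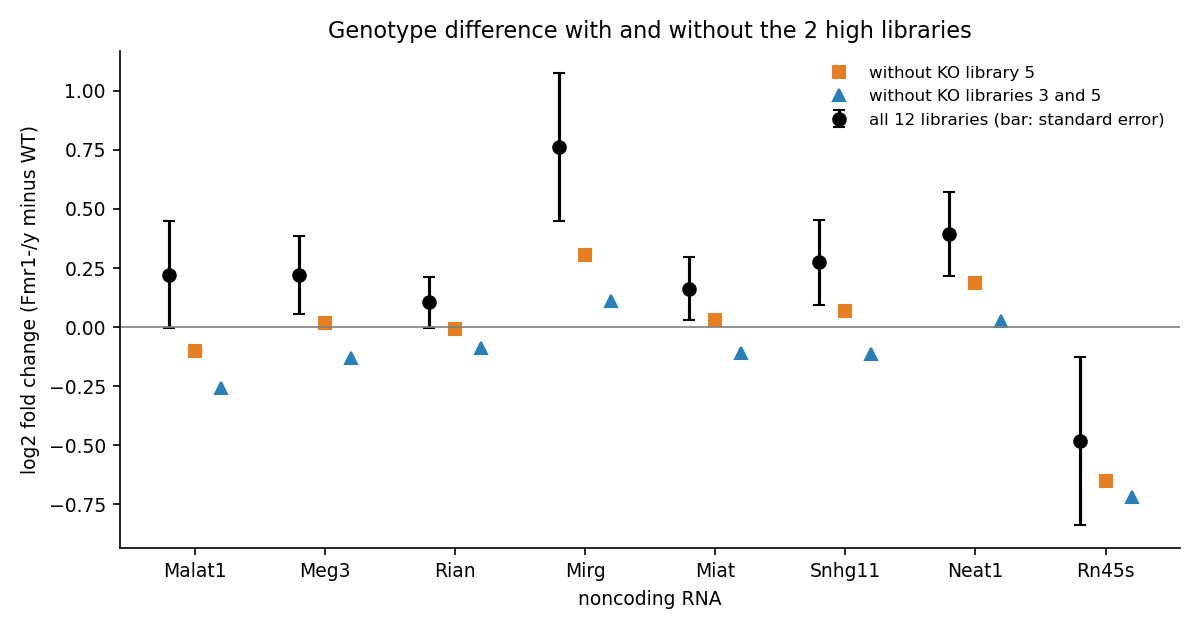
log2 fold change of each noncoding RNA (Fmr1-/y minus wild-type) fitted with all 12 libraries (circles with standard errors), without Fmr1-/y library 5 (squares) and without libraries 3 and 5 (triangles). The 7 long noncoding RNAs lie above 0 with all libraries and move down as the libraries are left out, to between -0.26 and 0.11, while Rn45s stays below 0. The libraries left out were the highest for the 7 long noncoding RNAs, which moves their differences down in any case.

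The spread inside the groups differed more than the means. The SD of log2 CPM over 6 libraries was 0.16 for Malat1 in wild-type and 0.66 in Fmr1-/y, a ratio of 4.13. For Meg3 it was 0.16 and 0.47, for Rian 0.09 and 0.30, and for Rn45s 0.41 and 1.15. All 8 RNAs had an SD at least 2 times larger in Fmr1-/y, with ratios of 2.32 to 4.13. Among the 11281 genes with a mean of at least 5 CPM, the median ratio was 1.17 and 11.5% had a ratio of at least 2. Without libraries 3 and 5 the Fmr1-/y SD was below that of wild-type for Meg3 (0.13), Mirg (0.25), Miat (0.12), Snhg11 (0.14) and Neat1 (0.17), but stayed above it for Malat1 (0.29) and Rian (0.12). For Rn45s it was 0.75 without library 1, still above the wild-type 0.41. Libraries 3 and 5 were the highest for the long noncoding RNAs, and leaving them out tends to narrow the Fmr1-/y spread alone. The difference in spread was not tested.

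Did the RNAs vary together? Correlations of log2 CPM were computed over the 12 libraries for 28 pairs of these RNAs and for 24 pairings with library depth or a marker score, with permutation p-values adjusted over all 52. Among the 7 long noncoding RNAs, Pearson's r was 0.68 to 0.98 with a median of 0.86, and 20 of 21 pairs had an adjusted p under 0.05. The exception by r was Malat1 with Neat1 (r = 0.68, Spearman's rho = 0.14, adjusted permutation p of r = 0.0731). Fewer pairs passed by rank. By rho, Meg3 passed with Malat1, Rian, Miat and Snhg11, as did Malat1 with Rian, Rian with Snhg11 and Miat with Snhg11. No pair with Mirg or Neat1 passed by rho (Meg3 with Mirg, rho = 0.61, adjusted permutation p = 0.164). How often pairs of other genes correlate this closely was not measured. The 7 pairs with Rn45s had r of 0.03 to 0.54, and none passed.

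Much of this rested on 2 libraries. Without library 5, 8 of the 28 pairs had an adjusted p under 0.05, and without libraries 3 and 5 only 2 did, Meg3 with Snhg11 and Malat1 with Rian. Meg3 with Snhg11 had r = 0.98 (rho = 0.89, adjusted permutation p = 0.00052) over 12 libraries and r = 0.89 without its 2 farthest libraries on the Meg3 axis, which were libraries 3 and 5. Their ratio was nearly fixed, with Meg3 at 2.45 to 2.99 times the CPM of Snhg11 in every library. Malat1 with Rian had r = 0.97 (rho = 0.97, adjusted permutation p = 0.00052), r = 0.89 without the 2 libraries farthest on the Malat1 axis, and r = 0.91 without libraries 3 and 5. Within genotypes r was 0.95 in wild-type and 0.98 in Fmr1-/y.

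Malat1 with Meg3, whose promoters are printed above, had r = 0.87 (rho = 0.80, adjusted permutation p = 0.00558), and r = 0.83 in wild-type and 0.88 in Fmr1-/y libraries. Without libraries 3 and 5 their r was 0.41, with an adjusted permutation p of 0.459. Within the Dlk1-Dio3 region, Meg3 with Rian had r = 0.92 and Meg3 with Mirg had r = 0.95, which fell to 0.60 and 0.70 without libraries 3 and 5. Mirg with Rian had r = 0.84 but rho = 0.34, and r = 0.17 without those libraries.

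Neat1 followed the others in the 2 high libraries alone. Its r with the other 6 long noncoding RNAs was 0.68 to 0.86 over 12 libraries. Within the wild-type group it was -0.56 to 0.10, and without libraries 3 and 5 it was -0.60 to 0.20. Among the other 6, r was 0.49 to 0.96 within the wild-type group for all 15 pairs. Against its neighbour Malat1, Neat1 had r = -0.56 in wild-type and 0.83 in Fmr1-/y libraries. These within-group values rest on 6 libraries each and were not tested against each other.

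**Figure D4:**
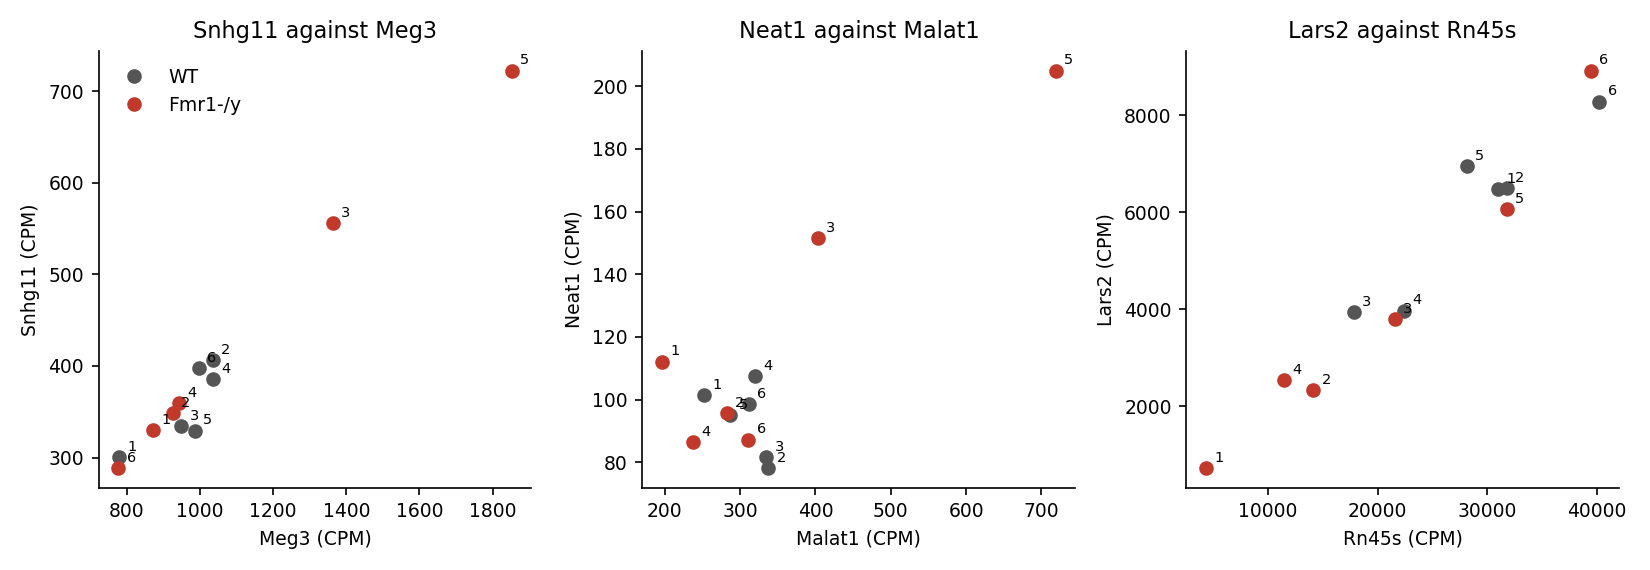
CPM of 3 pairs of genes in the 12 libraries (grey wild-type, red Fmr1-/y, replicate numbers beside the points; linear axes that do not start at 0). Snhg11 follows Meg3 (r = 0.98 on the log2 scale), Neat1 follows Malat1 in libraries 5 and 3 but not among the other points, and Lars2 follows Rn45s across its whole range.

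Of the 24 pairings with depth or marker scores, 1 passed. Rn45s was lower where the astrocyte, oligodendrocyte, microglial and endothelial marker score was higher (r = -0.75, rho = -0.59, adjusted permutation p = 0.0153), with r = -0.57 in wild-type and -0.77 in Fmr1-/y libraries. Without the 2 libraries farthest on the score, Fmr1-/y libraries 1 and 2, r was weaker at -0.35, over a narrower range of the score. Against the CA1 pyramidal score, Rn45s had r = 0.55 (rho = 0.50, adjusted permutation p = 0.158). The 7 long noncoding RNAs had r of 0.22 to 0.48 with depth and none passed. Library 5, the deepest, decided that sign. Within the wild-type group r with depth was -0.98 for Mirg, -0.90 for Meg3 and -0.11 for Neat1, the other 4 lying between, and without library 5 it was -0.65 to -0.08.

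Which other genes had the most similar profile? Over 12 libraries, after removing each genotype's mean, the 3 genes with the highest Pearson r among 11281 genes with at least 5 CPM were listed for each RNA, as a description with no test. The nearest profile to Malat1 was Rian (r = 0.98), followed by Ipw, a noncoding RNA of the imprinted Prader-Willi region, and Fancg, a DNA repair gene (both r = 0.93). The nearest to Meg3 was Snhg11 (0.98), then Prpf39, a splicing factor (0.98), and Pnisr (0.97). Rian was followed most closely by Malat1 (0.98), Ipw (0.95) and Pnisr (0.93).

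Mirg lay closest to Meg3 (r = 0.97), Prpf39 (0.95) and Pnisr (0.95). Miat lay closest to Prpf39 (0.97), Firre, a nuclear noncoding RNA of the X chromosome (0.97), and Snhg11 (0.96), and Snhg11 to Meg3 (0.98), Firre (0.97) and A930011O12Rik (0.96). Neat1 had a list with no gene in common with the other 7, Clk1 (0.96) and Clk4 (0.93), kinases that phosphorylate splicing factors, and Izumo4 (0.92). All these genes were themselves highest in Fmr1-/y library 5, where Clk1 stood at 86.8 CPM against 33.7 to 43.1 CPM in wild-type. Without libraries 3 and 5, r fell to 0.83 for Neat1 with Clk1 and to 0.48 for Malat1 with Fancg, and stayed at 0.91 for Rian with Ipw.

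Rn45s was followed by 2 abundant rows, Mir6236 (r = 0.99), an annotated microRNA gene on chromosome 9, and Lars2 (r = 0.98), the mitochondrial leucyl-tRNA synthetase, and by Mob2 (0.94). Mir6236 and Lars2 kept r of 0.99 and 0.98 without libraries 3 and 5. Lars2 ranged over 12.2-fold between libraries and Mir6236 over 6.00-fold, as Rn45s ranged over 9.24-fold. The CPM of Lars2 was 16.5% to 24.7% of that of Rn45s in every library, and that of Mir6236 was 1.57% to 2.74%. Lars2 differed between genotypes by -0.57 ± 0.39 on the log2 scale (adjusted p = 0.791 in edgeR) and Mir6236 by -0.59 ± 0.30 (adjusted p = 0.662). Whether the 3 rows share sequence with each other was not tested.

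Mature microRNA sequences are shown for Mir6236, the row closest to Rn45s, and for the 3 hairpin genes of the Meg3 to Mirg stretch with the most reads. They come from RefSeq (GRCm38.p6) and are written 5′ to 3′ with the seed, bases 2 to 8, in capitals. The 7 seeds are all different.
mmu-miR-6236: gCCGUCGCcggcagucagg
mmu-miR-3072-5p: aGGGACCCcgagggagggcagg
mmu-miR-3072-3p: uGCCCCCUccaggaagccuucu
mmu-miR-3070-5p: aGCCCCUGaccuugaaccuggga
mmu-miR-3070-2-3p: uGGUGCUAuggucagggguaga
mmu-miR-431-5p: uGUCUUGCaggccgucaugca
mmu-miR-431-3p: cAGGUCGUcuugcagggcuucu
Many microRNA genes lie along this stretch of chromosome 12. RefSeq places 57 hairpins between the start of Meg3 and the end of Mirg, of which 10 lie within Mirg, 3 within Rian, 1 within Meg3 and 43 between the 3 genes. Of these, 55 had a row among the counts and 27 had at least 1 read, 601 reads in all. The largest was Mir3072, at chr12:109747878-109747960 inside Mirg, with 168 reads, followed by Mir3070b with 80 and Mir431 with 67. Poly-A selected libraries of fragmented RNA do not measure mature microRNAs, and these reads are fragments that fall on the hairpin.

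Summed over the 55 rows, the hairpins took 0.592 to 1.18 CPM of the library total in wild-type libraries. In Fmr1-/y libraries they took 0.433 to 2.79 CPM. The highest was library 5, with 183 of the 601 reads, and the second was library 3 at 1.37 CPM. The hairpins differed by place. Those inside Mirg had 130 of their 262 reads in library 5 and those inside Rian 31 of 56, whereas the hairpins between the 3 genes had 22 of 283. The hairpin inside Meg3 had 0 reads. Mir3072 had 91 of its 168 reads in library 5, whereas Mir3070b had 0 reads there. The counts rest on few rows. Mir3072 gave 91 of the 130 reads inside Mirg, and Mir431 gave all 22 of those between the 3 genes. These read counts are also not scaled for depth, and library 5 was the deepest, at 65565479 reads against 39400980 to 55745464 in wild-type libraries. The authors' counting dropped reads that overlap more than 1 gene on the same strand, so that reads over the 10 hairpins inside Mirg could be lost to both rows, by an amount the counts do not show.

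Protein-coding genes in and around the same region were read from the same libraries. The 8 listed were Dlk1, Rtl1, Dio3, Begain, Wdr25, Wars, Ppp2r5c and Dync1h1, so that the list was not limited to the imprinted genes. None of the 8 passed the threshold, against 0.0224% of all genes. A negative difference was found for 7 of them (median -0.06 on the log2 scale), where 8670 of all 17823 genes tested were negative. The direction was not tested. Dlk1, a paternally expressed Notch-like ligand, stood at 29.6 CPM in wild-type, Rtl1 at 1.08 CPM, Dio3, a thyroid hormone deiodinase, at 5.31 CPM, and Begain at 61.4 CPM. Beyond the imprinted genes, Dync1h1, the cytoplasmic dynein heavy chain, stood at 277 CPM.

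Other noncoding RNAs were read from 4 lists, of which 44 of 74 genes had a row and 39 were tested. None of the 39 passed the threshold in edgeR, against 0.0224% of all genes. At an unadjusted p under 0.05 there were 2 of 39, against 7.96% of all genes. Of these, Snhg7 was higher and C130071C03Rik lower in Fmr1-/y. The median difference of the 39 was 0.02 on the log2 scale, against 0.22 for the 8 RNAs and 0.00 for all genes. Of the 39, 20 formed a list of long noncoding RNAs, whose place in the cell was not measured. In this list those with the most reads in wild-type were 2900097C17Rik at 2681 ± 379 CPM and the imprinted Peg13 at 492 ± 50.4 CPM (SD, n = 6). Kcnq1ot1 followed at 104 CPM, Tug1 at 99.9 CPM and 1700020I14Rik at 63.9 CPM.

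Of 13 other small nucleolar RNA hosts, 12 had a positive difference with a median of 0.13, where 9153 of all 17823 genes tested were positive. None of the 13 passed, against 0.0224% of all genes. Snhg1, Snhg3 and Snhg4 were highest in Fmr1-/y library 5 and second in library 3, and the direction was not tested. Gas5 was the most abundant of the 13 in wild-type at 73.0 CPM, followed by Snhg8 (14.8 CPM), Snhg12 (10.2 CPM), Snhg5 (6.00 CPM) and Snhg1 (5.39 CPM). Among the small structural RNAs, Bc1, the dendritic RNA of rodent neurons, averaged 752 CPM over the 12 libraries. In wild-type libraries Rpph1 stood at 1.98 CPM, Rmrp at 1.64 CPM and Rnu73b at 0.0589 CPM. Xist stood at 0.250 CPM in these male pools. Of the 2 microRNA host transcripts tested, Mir22hg stood at 15.5 CPM and Mir17hg at 0.207 CPM in wild-type.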

How the data were processed

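Per the labels and the study's methods, RNA bound to HA-tagged ribosomes was made into stranded poly-A libraries and sequenced as single 50-cycle reads. The authors aligned the reads with TopHat 2.1.1 (Bowtie 2.2.8) to mm10 with UCSC gene models and counted them per gene and strand with HTSeq 0.6.1p1 in union mode, and deposited raw counts without normalization. Which libraries shared a lane is not given in the sources used here.

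The deposited counts were used unchanged, and genotypes were taken from GEO's labels. Genes that summed to 15 reads or more were tested with edgeR 4.0.16 (TMM, quasi-likelihood, no block) in R 4.3.3, with a threshold of 0.05 for the adjusted p. A standard error is the log2 fold change divided by the square root of F. CPM values are TMM-normalized. log2 CPM used a prior count of 2. RPKM divides CPM by the exon union of GENCODE M21 transcripts matched to RefSeq. Correlations used 100000 permutations, two-sided, in Python 3.11.15. The edgeR step was checked on simulated counts.

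The members, the lists and the tests were chosen with earlier results of these data known. Named genes are the 8 RNAs, the 5 highest by mean CPM in each list, protein-coding genes in and around the Dlk1-Dio3 region, markers, and the 3 nearest profiles of each RNA. Alternatives were DESeq2 1.42.0, limma 3.58.1 voom, other scalings and filters, a replicate block and each library left out. Leaving out Fmr1-/y libraries 3 and 5 was chosen after seeing the data. The replicates are separate pools of mice.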

Additional observations from a re-analysis of the deposited data

Results flagged for a closer look

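In 22 groups of 6 libraries (the 8 noncoding RNAs, Fmr1, Mir6236 and Lars2 in each genotype), the gap between an extreme library and its nearest neighbour was set against the range of the group by Dixon's test, whose 95% critical value for 6 samples is 0.625. Chance flags about 1 group in 20. Leaving aside Fmr1 in Fmr1-/y, 3 of 21 groups were flagged. Mirg in Fmr1-/y library 5 stood at 10.4 CPM, where the nearest library had 4.96 CPM. Meg3 in wild-type library 1 stood at 778 CPM, below the nearest at 949 CPM, and Rian in the same library at 135.7 CPM, below the nearest at 153 CPM. Fmr1 in Fmr1-/y library 2 stood at 0.0198 CPM, which is 1 read, where the other 5 Fmr1-/y libraries had 0 reads, so that any single read would be flagged there. Malat1 in Fmr1-/y library 5 came close, with a gap of 0.605 of the range.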

How the results depend on the processing

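The count of the 8 RNAs past the threshold was 0 under all 22 alternatives, and so was that of the other noncoding lists. The lowest adjusted p of any of the 8 under any alternative was 0.341, for Mirg. Malat1 turned from 0.22 to -0.10, and Rian from 0.10 to -0.0083, without Fmr1-/y library 5. Leaving out each library in turn gave -0.10 to 0.35 for Malat1 and -0.0083 to 0.17 for Rian. Without libraries 3 and 5, Malat1 (-0.26), Meg3 (-0.13), Rian (-0.0896), Miat (-0.11) and Snhg11 (-0.11) reversed, and 2 of 28 correlations passed, against 20 with all libraries and 8 without library 5. Fewer libraries entered those fits, and the cause was not tested beyond that. Libraries 3 and 5 were the highest for the long noncoding RNAs, so that leaving them out lowers the difference in any case. The number of all genes past the threshold was 4, but 84 with DESeq2, 1 with at least 10 reads in every library, and 2 to 6 with a library left out. The filter of 10 reads in every library drops Fmr1 itself, which had at most 1 read in each Fmr1-/y library. That count of 1 is therefore not a like comparison.

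Whether same-numbered libraries were prepared together is not given in the sources used here. Deviations of same-numbered libraries correlated at 0.0994 on average (-0.243 to 0.348) over 12800 genes. These values show no clear pairing by replicate number but cannot exclude it. With the replicate block the count stayed at 0, Rn45s moved from -0.48 to -0.72, Malat1 from 0.22 to 0.08. All 32 mean levels moved by less than 1 SD under the other scalings. The number of the 8 at an unadjusted p under 0.05, in either direction, was 2, but 3 with the block, 1 with DESeq2, 0 with limma voom and 0 to 4 with a library left out (0 without Fmr1-/y library 5). The counts of 3 and of 4 included Rn45s, which was lower in Fmr1-/y. Rn45s had the largest standard error of the 8 (0.36), followed by Mirg (0.31).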
